A study of Mus musculus with 18 samples.

Results

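Sox2, Pax6, Hes1, Hes5, Eomes, Nes, Vim, Emx1 and Emx2, 9 genes that mark or maintain neural progenitors of the embryonic forebrain, were described by the accessible sites in each gene and the 50 kb on either side of it. The genes were taken by name, and the sites are the intervals (peaks) of 1 consensus list of ATAC-seq, which maps open DNA by where the Tn5 transposase can insert sequencing adapters. Of 211682 intervals in the list (mm10), 169 lay in the 9 windows, and the 9 genes are among 21774 nuclear protein-coding genes of RefSeq (GRCm38.p6). No interval was shared between windows.

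The list comes from 18 samples of primary cortical neurons, prepared from cortices of CD1 mouse embryos between embryonic day 14.5 and 15 and taken after 11 days in culture. All 18 received the mitotic inhibitor cytosine arabinoside at 2 µM and a pair of lentiviral shRNAs on day 6. The pair was shControl with shScrambled in 5 samples, shOpa1 with shScrambled in 5, shOpa1 with shAtf4 in 5 and shControl with shAtf4 in 3. Opa1 encodes a GTPase of mitochondrial fusion and Atf4 a transcription factor that cells raise under many stresses. The cultures are named by the labels as cortical neurons, with no sorting step stated, so other cell types of the embryonic cortex may be present. The list has no column for a sample or group, so nothing below compares knockdowns, no value has a replicate error, and the read depth is unknown. A peak seen in bulk material cannot tell a site open in many cells from one open in a few, so a peak at a progenitor gene cannot be assigned to neurons, to glia or to surviving progenitors.

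Radial glia, the progenitors that line the ventricle of the embryonic cortex, divide under the transcription factors Sox2, Pax6, Emx1 and Emx2 and are held back from differentiation by Notch signalling, which acts through RBPJ on the repressor genes Hes1 and Hes5. Eomes (Tbr2) marks the intermediate progenitors that arise from them, and Nes and Vim encode the intermediate filaments nestin and vimentin. Sox2, Hes1, Hes5, Vim and Nes are also used by astrocytes or their precursors, and cytosine arabinoside kills cells that replicate their DNA.

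Promoter sequences of 4 gene starts show how the peaks met the start sites. Each runs from 250 bases before to 50 bases after a start of RefSeq (GRCm38.p6), on the plus strand, 5′ to 3′. The table held 8 of the 9 genes, and Hes1 was not matched. The Hes5 sequence (chr4:154960673-154960972) is shown because it holds the letters bound by the Notch partner RBPJ 2 times, in capitals, at positions 226 and 83 bases before the start of that table entry, once on each strand. That start lies 297 bp inside the outermost end of Hes5, which is the start used for its peaks below, so both matches lie within the annotated gene. The first Pax6 sequence (chr2:105668646-105668945) is shown for the cyclic AMP response element, TGACGTCA, which CREB and ATF proteins bind, in capitals 76 bases before the start. Both sequences lay wholly inside a peak. The other 2 are shown for the parts that lay outside peaks, in capitals: the 74 bases around the downstream Pax6 start (chr2:105682213-105682512), and 52 bases between 2 peaks just before the Eomes start (chr9:118477939-118478238).
Hes5: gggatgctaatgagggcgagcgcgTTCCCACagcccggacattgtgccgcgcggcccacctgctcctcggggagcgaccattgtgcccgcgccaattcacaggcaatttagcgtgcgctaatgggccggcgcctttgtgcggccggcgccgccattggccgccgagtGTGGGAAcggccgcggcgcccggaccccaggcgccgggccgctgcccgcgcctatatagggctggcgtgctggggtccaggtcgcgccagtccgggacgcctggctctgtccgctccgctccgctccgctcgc
Pax6, first start: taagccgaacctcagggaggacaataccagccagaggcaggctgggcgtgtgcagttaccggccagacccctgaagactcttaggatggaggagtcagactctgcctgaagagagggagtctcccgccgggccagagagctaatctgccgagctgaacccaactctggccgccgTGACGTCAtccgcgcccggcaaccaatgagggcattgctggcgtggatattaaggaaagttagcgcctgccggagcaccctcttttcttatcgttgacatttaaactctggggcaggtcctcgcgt
Pax6, downstream start: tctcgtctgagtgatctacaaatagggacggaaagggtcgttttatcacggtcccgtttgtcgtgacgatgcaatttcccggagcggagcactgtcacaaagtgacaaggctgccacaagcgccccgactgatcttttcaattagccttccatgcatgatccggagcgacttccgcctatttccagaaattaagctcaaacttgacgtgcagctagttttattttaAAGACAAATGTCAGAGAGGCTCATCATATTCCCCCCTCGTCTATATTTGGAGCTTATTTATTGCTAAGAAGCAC
Eomes: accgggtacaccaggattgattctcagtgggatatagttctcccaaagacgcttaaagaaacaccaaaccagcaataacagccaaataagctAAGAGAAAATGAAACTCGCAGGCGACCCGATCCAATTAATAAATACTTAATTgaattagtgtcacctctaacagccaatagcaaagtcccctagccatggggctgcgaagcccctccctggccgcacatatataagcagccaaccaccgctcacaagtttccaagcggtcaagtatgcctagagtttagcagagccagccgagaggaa

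The letters were searched on both strands in the 9 promoters that RefSeq lists for the 8 genes and in 21263 promoters of protein-coding genes. GTGGGAA, for RBPJ, was in 6.07% of all promoters and, of these 9, in that of Hes5 alone. TGACGTCA was in 2.23% of all and, of the 9, in the first Pax6 promoter alone. TGATGNAA, the composite of ATF4 with a C/EBP protein, was in 3.60% of all and in none of the 9. CATTGT, for Sox proteins, was in 11.0% of all and occurred 2 times in the Hes5 promoter. TATAAA was in 12.6% of all and stood 32 bases before the Vim start, and the homeodomain letters TAATTA, in 4.53% of all, stood 36 bases past the Emx2 start. CCAAT was in 38.2% of all promoters and in those of Sox2, Hes5, Eomes, Vim and Emx2 and the first of Pax6. It overlaps none of the other letters found in those promoters. CACGTG, bound by many bHLH proteins, was in 7.84% of all and in none of the 9, and CACNAG, the N-box of Hes proteins, was in 41.9% of all and in those of Eomes and Vim and the downstream one of Pax6. The count of CpG dinucleotides ranged from 10 at Eomes and 11 at Vim to 37 at Emx1 and 41 at Hes5, with a median of 13 over all promoters. Such matches are letters, not measured binding.

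All 9 genes had a peak within 1000 bp of a gene end, as did 70.4% of protein-coding genes. Of the 8 genes whose strand is known, all on the plus strand, all had one within 1000 bp of the start (background 65.0%). It lay over the first base of the gene in each of these 8 (background 55.9%), and over the lower-coordinate end of Hes1. The start is therefore named below as the lower-coordinate end, for Hes1 without knowledge of its strand from the tables used. Genes are not replicates of one another and the genes were chosen with results of these data known, so these counts have no test.

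Among the transcription factors of radial glia, Sox2 (chromosome 3, 34649995 to 34652461) had the widest peak over a start. It ran for 2197 bp, from 34649195 to 34651391, and 98.4% of 9785 start-covering peaks of protein-coding genes were narrower. Emx1 (chromosome 6, 85187931 to 85204463), a homeobox gene of the dorsal forebrain, had 1 peak of 1471 bp over its start, from 85187051 to 85188521. Its paralog Emx2 (chromosome 19, 59458690 to 59465357) had 919 bp over the start, from 59457921 to 59458839, with a 460 bp peak before it and a 656 bp peak after it. At Pax6 (chromosome 2, 105668896 to 105698410), the paired-box factor, the peak was 403 bp, from 105668563 to 105668965, and it was the only peak within 1000 bp of that start. So the 4 factors spanned nearly the whole range of widths seen at starts.

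The Notch effectors differed from each other in the same way. Hes5 (chromosome 4, 154960626 to 154962372) had 1 peak of 1055 bp, from 154960491 to 154961545, over its start. Hes1 (chromosome 16, 30065357 to 30067796) had a narrow peak over its lower-coordinate end, 262 bp between 30065105 and 30065366, and 1.24% of start-covering peaks were narrower. It was flanked by a 1287 bp peak that ended 683 bp before the gene and by peaks of 384 and 750 bp inside it. The Hes1 site thus appeared as 4 separate intervals.

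Eomes (chromosome 9, 118478186 to 118486132), a T-box factor, had the narrowest peak over a start, 245 bp from 118478083 to 118478327, with 0.899% of start-covering peaks narrower. Peaks of 785 and 363 bp before it and 1041 bp after it lay within 1000 bp of the start, and a peak of 549 bp lay just beyond them, so that 5 intervals ran from 1985 bp before to 1289 bp after the start. The filament gene Vim (chromosome 2, 13574311 to 13582826) had 1593 bp, from 13573453 to 13575045, followed by 282 bp inside the gene. Nes (chromosome 3, 87971093 to 87980451) had 1063 bp, from 87970922 to 87971984, followed by 417 bp inside the gene.

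The width of the peak over the start alone therefore gave another order than the bases in any peak within 1000 bp of it. Of the 2001 bases of that window, 1969 lay in peaks at Sox2, 1759 at Eomes, 1626 at Vim, 1599 at Emx2 and 1471 at Emx1. Nes had 1141, Hes5 1055, Hes1 835 and Pax6 403. The median over 17492 genes with a known strand was 873, and Hes1 and Pax6 were below it. Eomes, last by the peak over its start, was above 97.8% of those genes by covered bases. Of the 9 genes, 6 had 2 or more separate peaks in the window, and 3 of them (Hes1, Eomes and Emx2) had 3 or more. Among genes with any peak there, 27.9% had 2 or more and 4.51% had 3 or more.

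**Figure D1:**
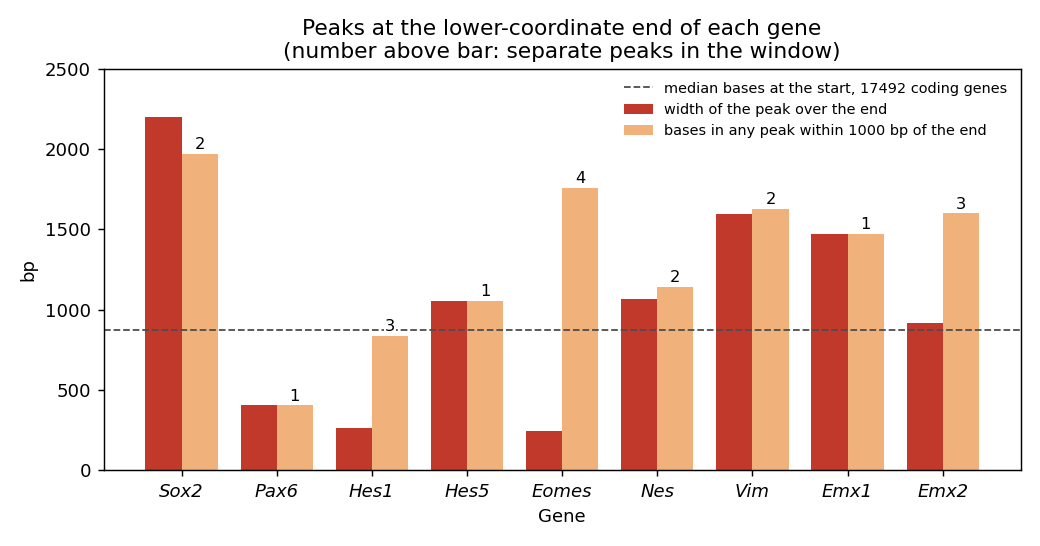
Bars give, for each of the 9 genes, the width in bp of the peak over the lower-coordinate end and the bases in any peak within 1000 bp of that end, with the number of separate peaks above the bar. At Eomes and Hes1 the peak over the end is 245 and 262 bp wide while 1759 and 835 bases of the window lie in peaks. The dashed line is the median of 873 bases at the starts of 17492 protein-coding genes.

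The finish of the gene, at its other end, mostly lacked a peak. Of the 8 genes with a known strand, only Hes5 had one within 1000 bp of the finish (background 25.0%), and that gene is 1747 bp long, so its start peak counts there too. A peak of 195 bp, from 154963306 to 154963500, was the only one past the Hes5 finish within that distance. It also lay within 1000 bp of an end of the neighbouring gene Pank4 and was nearer to that end, so it cannot be assigned to Hes5. In Hes1, 2440 bp long, the 750 bp interior peak lay 432 bp from the upper end. The nearest peak to the finish was 1045 bp away at Eomes, 1070 at Sox2, 1821 at Emx1, 1978 at Nes, 2023 at Emx2, 4043 at Vim and 7382 at Pax6.

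Distal peaks were defined as those with no base within 1000 bp of an end of any protein-coding gene. Every one of the 9 windows held distal peaks, as did 90.4% of protein-coding genes. Their number ran from 8 (Vim) to 25 (Emx1) with a median of 14, against a median of 9 over all protein-coding genes. They made up 134 of the 169 peaks (79.3%). The rest were 21 at the genes' own ends and 14 at the ends of coding neighbours. Over the whole list the share was 89.4%, but each window holds gene ends by construction, which lowers its share. The share within windows of other genes was not computed, so no conclusion is drawn from this difference. Of the 134, 16 lay inside the gene itself, 35 inside a coding neighbour, 51 inside a noncoding gene and 32 between genes. As many lay before the lower end as past the upper end, 59 on each side.

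Sox2 had 20 distal peaks, 10 on each side, and the nearest end of another protein-coding gene was 569 kb away. All 20 lay inside long noncoding genes, 19 of them within Sox2ot, the transcript that encloses Sox2. The widest was 1150 bp, from 34637603 to 34638752, and contained the microRNA gene Mir1897. With peaks of 813 and 276 bp next to it, it formed a run that began 12392 bp and ended 9020 bp before the gene. On the other side, 9 peaks lay between 7.31 and 21.7 kb from the start, the widest of 990 bp, and then 20.3 kb held none before a last peak of 847 bp at 41.9 kb. By distal peaks per 100 kb of window, Sox2 had 19.5, more than 96.5% of protein-coding genes.

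Pax6 had its distal peaks inside the gene. Of 14, 10 were interior, between 6.03 and 22.1 kb past the first start, and the widest of these was 1156 bp, from 105687561 to 105688716. A run of 5 peaks from 11.7 to 14.0 kb flanked the downstream start, which itself lay 13567 bp from the first and in a gap between peaks of 469 and 216 bp. Distal was set by the outermost gene ends only. Peaks of 342, 469 and 216 bp, within 1000 bp of this downstream start, are therefore among the 14. Before the gene there were 2 peaks, at 29.7 and 49.2 kb, and none lay on Paupar, the noncoding gene listed 7553 to 11034 bp before the start. Past the gene, 2 peaks lay inside Elp4, the neighbour whose introns are known to hold Pax6 enhancers, at 57.8 and 61.7 kb from the start, after 35.7 kb without a peak. The window as a whole held 10.8 distal peaks per 100 kb, above 72.3% of genes.

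Emx1 had the most peaks of the 9, 27 in its window, of which 25 were distal (21.5 per 100 kb, above 98.0% of genes). Inside the gene lay 3, of 793, 377 and 737 bp, within the first 6.44 kb. However, 11 lay inside Sfxn5, a neighbouring gene for a mitochondrial carrier, and 18 of the 25 were nearer to an end of another protein-coding gene than to one of Emx1. Emx2 had 11 distal peaks (10.3 per 100 kb, above 69.5%), and all of them were nearest to Emx2. Before its start, 6 lay inside Emx2os, the antisense transcript, among them a run of 133, 243 and 210 bp between 4204 and 5274 bp from the gene. Past the gene, a pair of 361 and 256 bp began 8.69 kb from the start, and 24.2 kb without a peak followed.

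At Hes1, 8 of 11 distal peaks lay before the gene and 3 past it (10.7 per 100 kb, above 72.0%). The widest, 1253 bp from 30022363 to 30023615, was 43.0 kb before the gene, inside the noncoding gene 9030404E10Rik, where 3 more peaks of 567, 735 and 480 bp followed. All 11 were nearest to Hes1, the next end of a protein-coding gene being 189 kb away. Hes5 lies among other genes, with Pank4, for a pantothenate kinase family protein, 1751 bp from its upper end. Its window had 12 distal peaks (11.8 per 100 kb, above 76.9%), and only 2 were nearest to Hes5, of 937 and 746 bp at 14.6 and 3.55 kb before the gene. The 1475 bp peak from 154963776 to 154965250, the widest of the window, lay at the end of Pank4.

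Eomes had 18 distal peaks (16.7 per 100 kb, above 92.4%), and 12 of them were nearest to Eomes. Eomes has among these the 549 bp peak of the run at its start. Past its finish, a run of 5 peaks of 133 to 755 bp lay between 8.99 and 11.8 kb from the start, on the noncoding gene Gm33460. Before the gene, 6 peaks between 14.3 and 35.1 kb lay inside noncoding genes, the widest of 786 bp. The widest peak of the window, 1230 bp from 118505633 to 118506862, belonged to the end of Golga4, which encodes a golgin, and 6 peaks lay inside that neighbour.

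Of the distal peaks around the filament genes, few were nearest to Nes or Vim. Nes had 15 (13.7 per 100 kb, above 84.7%), of which 2 were nearest to Nes, a 400 bp peak inside the gene 3.15 kb from the start and a 232 bp peak past the finish. The second intron of Nes is known as a neural enhancer, but the tables used here give no exons, so the interior peaks were not placed in introns. Bcan, the neighbouring gene for the brain proteoglycan brevican, held 6 distal peaks, with 1014 bp from 87999610 to 88000623 as the widest of them. The widest of the window, 1702 bp, lay inside Hapln2, a gene for a hyaluronan link protein. Vim had 8 (7.37 per 100 kb, above 51.3%), the lowest of the 9. Nearest to Vim were 3, of 200 and 189 bp inside the gene and 184 bp at 22.0 kb, and the 36.4 kb from there to the edge of the window held none. The 200 bp peak began 1292 bp past the start, just after the 282 bp peak counted at the gene end.

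**Figure D2:**
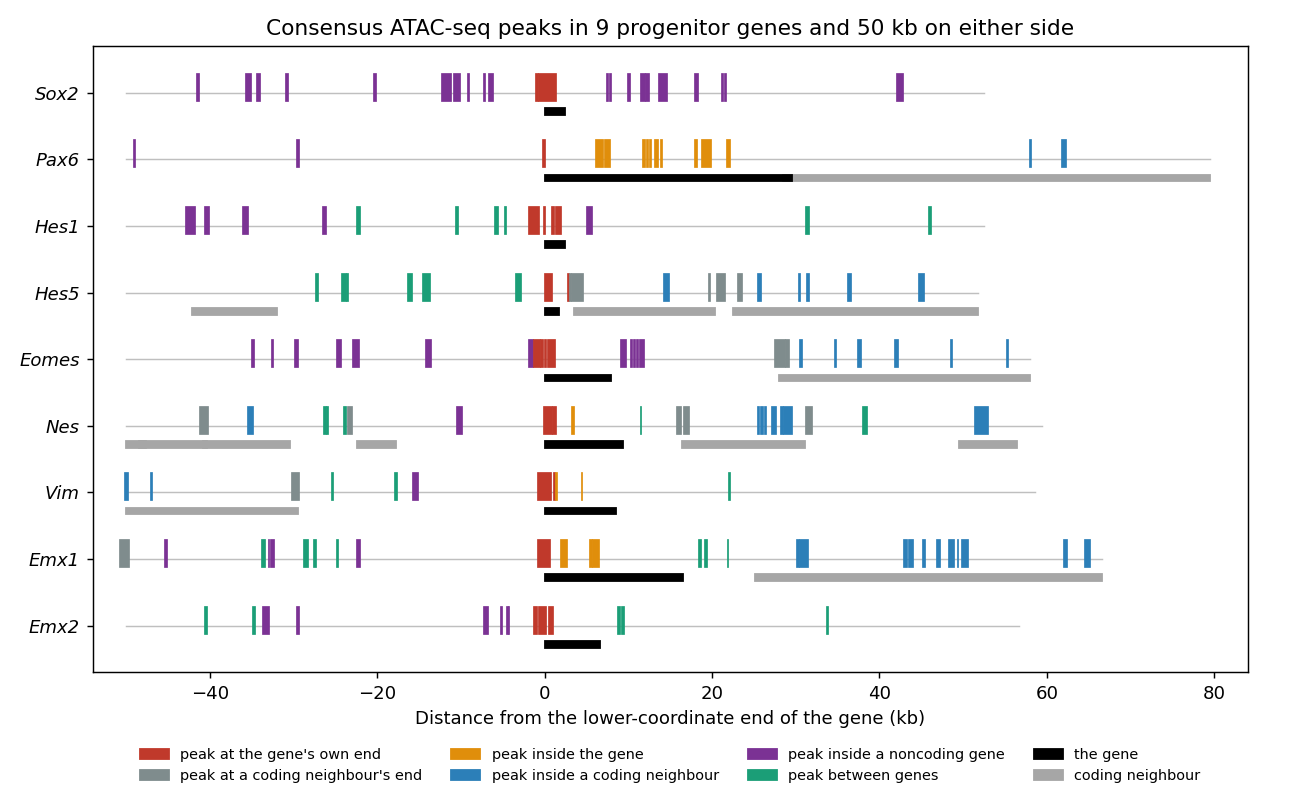
Each row is 1 gene with 50 kb on either side, drawn to scale in kb from the lower-coordinate end, with peaks coloured by what they lie on, the gene as a black bar and coding neighbours as grey bars. Each of the 9 genes has a peak over its lower-coordinate end. Interior peaks are most numerous at Pax6 (10), while the 20 distal peaks of Sox2 lie on both sides inside noncoding genes.

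Set side by side, the 9 windows held between 11 (Vim) and 27 (Emx1) peaks, with a median of 19, or 18.7 per 100 kb against a median of 10.3 over all protein-coding genes. Above that median were 8 of the 9 (background 50.0%), all but Vim, and above the upper quartile of 15.4 were 5 (background 25.0%, shares that a median and a quartile fix). For distal peaks alone the median was 11.8 per 100 kb against 7.14, with all 9 above the median of all genes, Vim at 7.37 only just, and 5 above the upper quartile of 11.4. The order ran from Emx1, Sox2, Eomes, Nes and Hes5 to Pax6, Hes1, Emx2 and Vim, and Pax6, Hes1 and Emx2 lay close together at 10.8, 10.7 and 10.3. Of the distal peaks, 79 of 134 (59%) were nearest to an end of the gene itself, a share not computed for other genes. The widths of distal peaks were like those of the whole list, with a median of 402 bp against 413 bp, 36.6% against 35.2% at least 500 bp wide, and 4.48% against 4.59% at least 1000 bp wide.

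The difference was seen in the 4 steps up to 40 kb and not from 40 to 50 kb, the last step counted. Distances past 50 kb were not split into steps. Outside the gene, the mean number of distal peaks per 10 kb was 1.56 within 10 kb of a gene end, against 0.653 over all protein-coding genes. It was 1.28 against 0.771 between 10 and 20 kb, 1.78 against 0.78 between 20 and 30 kb and 1.11 against 0.792 between 30 and 40 kb. Between 40 and 50 kb the means were 0.778 and 0.793. No single gene gave more than 8 of the 28 peaks in the nearest step, and Pax6 and Vim, which had interior peaks, gave none there. In the steps from 10 to 40 kb, the most from 1 gene was 7, of 23, 32 and 20 peaks in turn. From 30 to 40 kb those 7 were at Emx1, so the difference there leans on 1 gene.

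**Figure D3:**
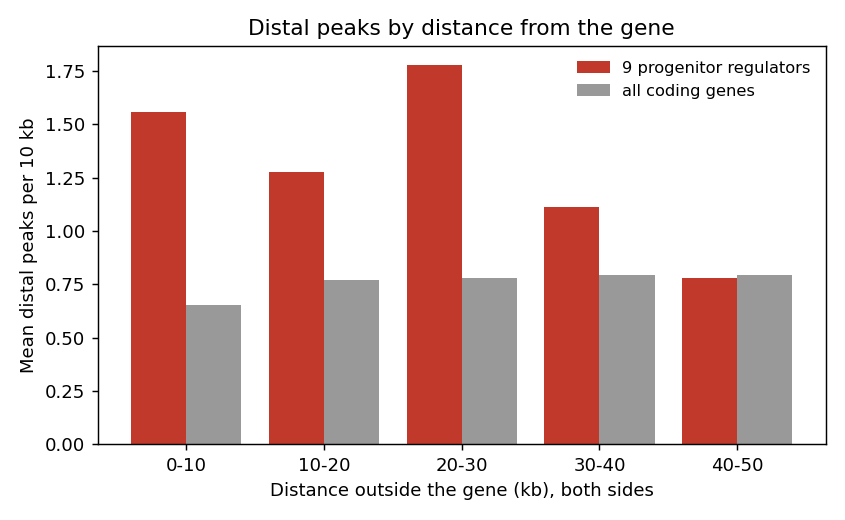
Mean distal peaks per 10 kb (vertical axis) by distance outside the gene in kb, both sides combined, for the 9 genes and for all protein-coding genes. The bars for the 9 genes are higher in the 4 steps up to 40 kb, and the 2 bars are nearly level between 40 and 50 kb (0.778 and 0.793).

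Other genes of the same pathways and cells were counted in the same way. Of 17 genes of the Notch pathway, 16 had a peak at a gene end, the widest at the ligand gene Dll1 (2457 bp) and at Numbl (2323 bp), which encodes a Notch antagonist. Heyl, another Notch-induced repressor gene, had none. All 20 further genes of radial glia and intermediate progenitors had one, the widest at the zinc finger gene Insm1 (2667 bp) and the proneural gene Neurog2 (2330 bp). So did all 12 genes of cell division, with 1439 bp at Mki67 and 1425 bp at Birc5. Of 12 genes of cortical neurons after division, 11 had one, the widest at Tbr1 (2112 bp) and the vesicular glutamate transporter gene Slc17a7 (1530 bp). Of 12 regulators of other lineages, 7 had one (58.3%, under the background of 70.4%), the widest at the lineage factor genes Sox17 (1222 bp) and Cdx2 (1173 bp). Gata1, Gata4, Tbx5, Hnf4a and Pou5f1 had none.

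A peak over the start itself, seen in 55.9% of all genes with a known strand, was present in 11 of 14 Notch pathway genes with a known strand, 13 of 14 of the radial glia list, all 8 of the division list and all 10 of the neuronal list. Of 8 regulators of other lineages, only Pdx1 had one. Median distal density was 11.0 peaks per 100 kb for the Notch pathway, 9.58 for radial glia, 10.8 for division, 10.4 for neurons and 7.99 for regulators of other lineages, against 11.8 for the 9 genes and 7.14 over all genes.

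Markers of glia were also counted, since several of the 9 genes are active in them. Of 8 astrocyte markers, 6 had a peak at a gene end (75%, near the background of 70.4%), the widest at the glutamate transporter gene Slc1a2 (1344 bp) and Gfap (1315 bp), with none at Aqp4 or Aldh1l1. The start of Slc1a2 lay under a peak, while no peak lay over the start of Gfap. Sox9, 1 of those 6, is also in the radial glia list, so these lists are not fully separate. Of 5 microglial markers, 2 had one, Tmem119 (565 bp) and Cx3cr1 (386 bp), with none at Aif1, C1qb or P2ry12. Of 5 oligodendrocyte lineage markers, 3 had one, among them Mbp (1804 bp) and Olig1 (1503 bp), with none at Cspg4 or Mag. Over the start lay a peak in 3 of 6, 0 of 4 and 1 of 3 genes with a known strand (background 55.9%), and these lists are small. Median distal density was 7.88 per 100 kb for astrocyte, 12.2 for microglial and 10.8 for oligodendrocyte markers, so a value as high as that of the 9 genes also stood at microglial genes that mostly had no peak at an end. The part of glia in the peaks at the 9 genes was not tested.

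**Figure D4:**
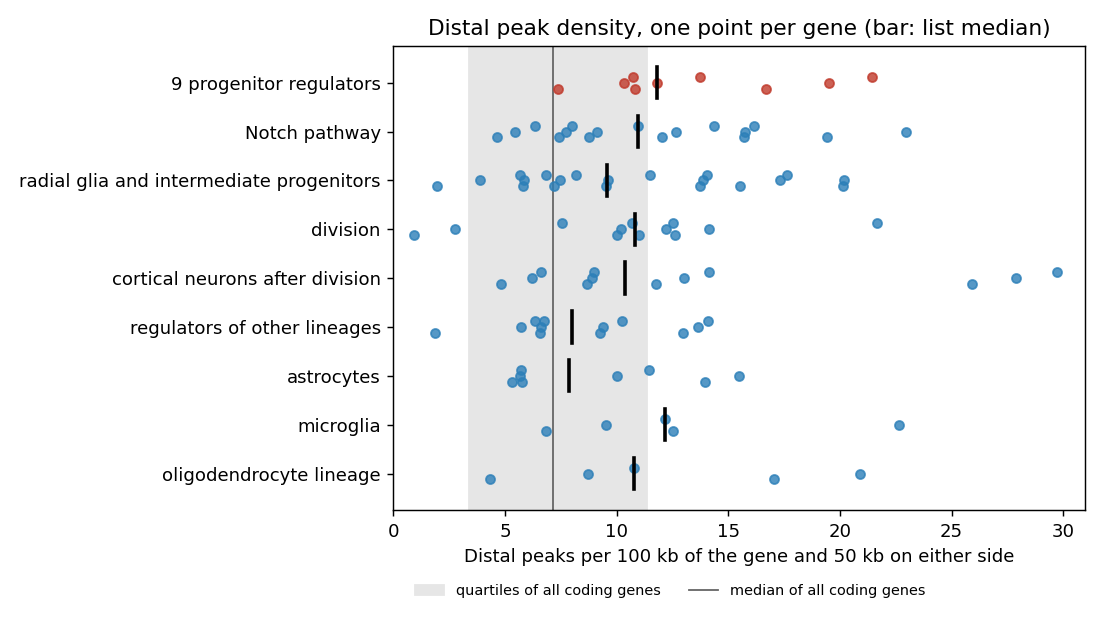
Distal peaks per 100 kb of each gene and its 50 kb flanks (horizontal axis), 1 point per gene, for the 9 genes and 8 lists, with list medians as black bars and the range between the quartiles of all protein-coding genes as a grey band. All 9 genes lie above the median of all genes (7.14), and the points of most lists spread across the band.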

How the data were processed

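Chromatin accessibility of 18 samples in 4 groups was deposited as 1 consensus list. Per the submitters' processing notes the tools were MACS2, deepTools and MultiQC and the build mm10, and the name of each interval cites MSPC, which combines calls across replicates. The sources used here name no aligner, thresholds or list of the samples that entered. The score deposited with each interval is at its ceiling of 1000 for nearly all peaks and was used for no ranking. The planned edgeR tests between groups were not run, since the list has no values per sample.

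Gene positions and promoters came from RefSeq tables of GRCm38.p6, without 348 scaffold genes, and 17492 protein-coding genes had a strand. Windows, classes and densities were computed with Python 3.11.15, numpy 2.4.6 and pandas 2.3.3, and figures with matplotlib 3.10.9. A peak counted with any overlap. Counting was checked on planted peaks. The named genes were the 9, and of each list those without a peak at an end and the 2 with the widest. Outside this rule, Pdx1, Sox9 and neighbouring genes are named. Of the genes this rule takes, 1 is not named. Members and lists were chosen with earlier results of these data known. Alternatives were end windows of 500 and 2500 bp, a peak over the end, peaks of at least 500 bp, flanks of 10 and 100 kb, midpoints, and other definitions of distal.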

Additional observations from a re-analysis of the deposited data

How the results depend on the processing

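No paired analysis was possible because the list holds no values per sample. All 9 genes had a peak at an end with windows of 500 and 2500 bp and when the peak had to cover the end, and 8 did among peaks 500 bp or wider, where Pax6 had none. The shares of all protein-coding genes in these settings were 66.2% and 77% with the windows, 57.9% over the end and 63.2% among the wider peaks. Of 36 alternative counts over the 9 genes and the 8 lists, 30 stayed within 1.5 times. Regulators of other lineages went to 4 of 12 among peaks 500 bp or wider and 2 when the peak had to cover the end. Microglial markers gave 1 of 5 in those settings and with 500 bp windows, and 4 with 2500 bp. The median of peaks per window was 7 with flanks of 10 kb, 32 with 100 kb and 8 among peaks 500 bp or wider. The median of distal peaks was 6 with flanks of 10 kb, 6 among peaks 500 bp or wider and 9 with ends widened to 5000 bp. With ends widened to 5000 bp, Nes fell most, from 15 to 3. Eomes went from 18 to 11, Vim from 8 to 5 and Emx2 from 11 to 7. Emx1 went from 25 to 19, Hes5 from 12 to 9, Hes1 from 11 to 9 and Sox2 from 20 to 19, and Pax6 kept 14. By construction, these settings count fewer or, with 2500 bp and 100 kb, more bases or peaks. Median distal density of the 9 genes stayed above that of all genes in each of the 5 alternatives (8.85 against 4.58 per 100 kb with 5000 bp), with 7 to 8 of the 9 above it. For the density of all peaks, 6 of the 9 were above the median of all genes among peaks 500 bp or wider. With flanks of 100 kb 7 were, with midpoints 8 and with flanks of 10 kb 9. How many samples share a peak, and the depth, are unknown.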

Other observations

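Noncoding genes lay in each of the 9 windows. The share of distal peaks inside such genes was not computed over all genes, so the counts below describe these windows only. Of the 134 distal peaks, 51 lay inside a noncoding gene and outside any coding one, most at Sox2 (20), Eomes (12), Emx2 (6) and Hes1 (5), which have no coding neighbour in the window or, for Eomes, 1. Hes5 had none. At Emx2, the upper-coordinate end of the antisense transcript Emx2os lay 55 bp before the start, and 3 peaks lay within 1000 bp of that end. As a transcript antisense to a plus-strand gene, Emx2os would begin there, so these peaks cannot be assigned to 1 of the 2 genes.

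Of the 169 peaks, 6 had a score under the ceiling of 1000 (3.55%, against 1.53% of the whole list), 2 each at Eomes and Emx1 and 1 each at Vim and Emx2. They were 133 to 256 bp wide, and none lay at an end of the gene.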
